A study of Mus musculus with 6 samples.

Results

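Metallothioneins are encoded by Mt1, Mt2 and Mt3 in these data, and the 3 genes were found by their symbols among the 54752 genes counted in the right hippocampus of 3 sham and 3 BCAS mice. All mice were wild-type males of strain C57BL/6 (C57BL/6 J in the study's methods), with a time of 14 weeks given in the labels, which the supplement of the study lists as the age. In the BCAS group (bilateral carotid artery stenosis) a microcoil narrowed each common carotid artery, with the narrower coil on the right, the side of the tissue used here. The sham group had the same surgery without coils, and the tissue was taken 3 weeks after surgery. Each library holds the RNA of all cell types of 1 whole hippocampus. All 12 markers of hippocampal neurons were counted in every library, as the labelled tissue requires. Libraries held 29652456 to 35607098 counts, with the BCAS libraries below the sham libraries in total. All 3 genes passed the filter on low counts, but only Mt1 and Mt3 were counted in depth.

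Metallothioneins are small cytosolic proteins unusually rich in cysteine, whose thiols bind zinc and copper and react with oxidants. Mt1 and Mt2 are expressed mainly by astrocytes in brain, with some expression in endothelial and ependymal cells, and are classic targets of zinc, glucocorticoids, cytokines and oxidative stress through the zinc-sensing factor MTF1 and others. Mt3, first isolated as a growth inhibitory factor, is largely restricted to the nervous system, where astrocytes and zinc-rich neurons express it, and it responds little to the inducers of Mt1 and Mt2.

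The genes lie in a cluster of 27721 bases on chromosome 8 of mm10, all on the plus strand. Mt3 (ENSMUSG00000031760.9) spans chr8:94152607-94154146, Mt2 (ENSMUSG00000031762.7) spans chr8:94172664-94173568 and Mt1 (ENSMUSG00000031765.8) spans chr8:94179082-94180327. Mt4, a further metallothionein gene outside this span at chr8:94137197-94139031, had 1 count in all 6 libraries together and is no member here. The coding sequences are given from the GENCODE M21 transcripts, to show how alike the members are, with cysteine codons (TGC or TGT) in capitals and introns left out.
Mt1: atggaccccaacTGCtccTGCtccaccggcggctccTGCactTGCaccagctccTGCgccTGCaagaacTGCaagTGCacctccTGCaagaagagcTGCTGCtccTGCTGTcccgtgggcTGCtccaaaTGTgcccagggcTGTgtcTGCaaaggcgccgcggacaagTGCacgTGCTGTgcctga
Mt2: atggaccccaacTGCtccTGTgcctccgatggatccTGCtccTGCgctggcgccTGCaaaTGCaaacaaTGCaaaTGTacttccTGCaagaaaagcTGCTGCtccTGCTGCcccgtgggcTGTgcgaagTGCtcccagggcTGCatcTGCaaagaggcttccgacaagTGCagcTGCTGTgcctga
Mt3: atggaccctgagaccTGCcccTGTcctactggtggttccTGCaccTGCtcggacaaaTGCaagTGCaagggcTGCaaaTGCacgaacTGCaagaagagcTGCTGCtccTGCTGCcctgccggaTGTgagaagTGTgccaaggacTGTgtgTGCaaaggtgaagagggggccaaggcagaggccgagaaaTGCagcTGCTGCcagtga
Each coding sequence held 20 cysteine codons, of 61 codons in Mt1 and Mt2 and of 68 codons in Mt3. Aligned over their full length, Mt1 and Mt2 were identical at 79.6% of positions, Mt1 and Mt3 at 65.2% and Mt2 and Mt3 at 67.6%. The longest run without a difference was 20 bases between Mt1 and Mt2 and 27 bases between Mt1 and Mt3. No stretch of 100 bases of the main transcript of any member occurred on the same strand in an annotated transcript of another gene. On the opposite strand, 113 of the 412 stretches of Mt2 occurred in Gm45774, an antisense gene described with Mt2, and none of Mt1 or Mt3 occurred in any. Copies elsewhere in the genome were not looked for.

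Mt1 rose after BCAS. Its normalised read counts (CPM, a gene's counts scaled to the library total after TMM normalization by edgeR) were 110, 121 and 143 in sham mice 1 to 3 and 227, 219 and 226 in BCAS mice 1 to 3. Every BCAS mouse lay above every sham mouse, and the BCAS mice were close to each other while the sham mice were spread. The mean was 124 ± 16.8 CPM in sham mice and 224 ± 4.26 CPM in BCAS mice (SD, n = 3 each), which is 1.80-fold higher. On the log2 scale this was a change of 0.85 with a standard error of 0.10 and a 95% interval of 0.62 to 1.08 (adjusted P = 0.000386, quasi-likelihood test of edgeR with Benjamini-Hochberg adjustment). Across all 18617 tested genes, 18.0% rose at an adjusted P under 0.05 and 25.3% had all BCAS mice above all sham mice (48.0% had groups that did not overlap in either direction). Of the genes that rose, 45.6% had a smaller log2 fold change than Mt1. Mt1 did not pass the fold change threshold of the study, an absolute log2 fold change above 1, which together with the adjusted P defines differentially expressed genes (DEGs, 9.46% of the tested genes, 8.47% up-regulated and 0.999% down-regulated). Since the tissue is bulk hippocampus, more cells that express a gene and more RNA per cell cannot be told apart.

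Mt3 showed no such difference. It had 122, 139 and 139 CPM in sham mice 1 to 3 and 141, 140.0 and 127 CPM in BCAS mice 1 to 3. The groups overlapped, with the lowest value in a sham mouse and the highest in a BCAS mouse. The means were 133 ± 9.61 and 136 ± 7.81 CPM (SD, n = 3 each), and the log2 fold change was 0.032 with a standard error of 0.08 (adjusted P = 0.799 by edgeR). The 95% interval of the log2 fold change ran from -0.15 to 0.22, so a change as large as the 0.85 of Mt1 lies outside it. Without sham mouse 1 the log2 fold change of Mt3 was -0.0305.

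**Figure D1:**
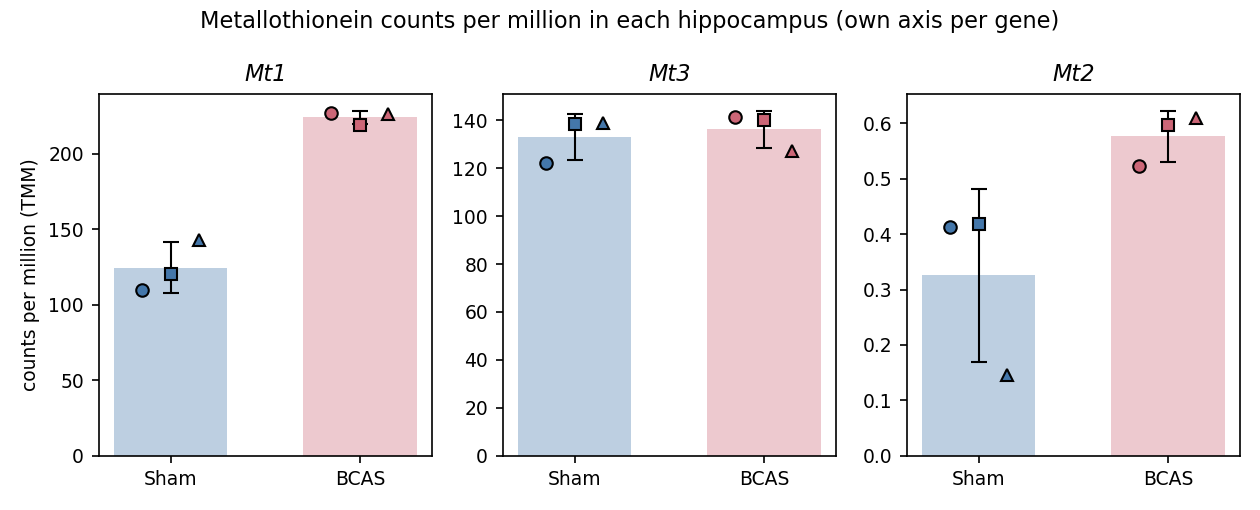
Level in CPM (TMM, linear axis from 0, 1 axis per gene) of Mt1, Mt3 and Mt2 in sham (blue) and BCAS (red) mice. Bars are means, error bars SD of 3 mice, and circles, squares and triangles are mice 1, 2 and 3. For Mt1 the BCAS mice sit between 219 and 227 CPM, above all sham mice, while the Mt3 groups overlap and Mt2 stays under 1 CPM in every library.

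Mt2 was nearly uncounted. The sham libraries held 14, 14 and 5 reads of it, and the BCAS libraries held 17, 18 and 19, so that Mt1 had 266 to 980 times its counts in the same libraries. The BCAS mice lay above the sham mice, with sham mouse 3 the lowest. The means were 0.326 ± 0.156 CPM in sham and 0.576 ± 0.0464 CPM in BCAS mice (SD, n = 3 each). The log2 fold change, 0.82 (standard error 0.48), did not pass (adjusted P = 0.227 by edgeR), and its 95% interval from -0.26 to 1.89 includes both no change and the change of Mt1. Without sham mouse 3 the log2 fold change of Mt2 was 0.46. A difference in Mt2 was thus not detected from these counts.

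The annotation used for counting places an antisense gene over Mt2. Gm45774 (ENSMUSG00000110588.1), an antisense RNA gene of 1 exon on the minus strand at chr8:94170748-94173412, covers 432 of the 588 exon bases of Mt2 (73.5%) and 171 of the 186 bases of its coding sequence. Only the last 156 bases of Mt2, chr8:94173413-94173568, belong to Mt2 alone. The files record that strand was ignored in counting and no option to keep reads that overlap several genes, and with these settings featureCounts drops a read that touches exons of both. The counts of Mt2 can thus come only from reads that do not touch the exon of Gm45774, and they are not a measure of all Mt2 mRNA. How many reads were dropped was not tested. Among the tested genes 34.4% shared at least 1 exon base with another gene, but only 0.360% (67 genes) shared as large a part as Mt2. No exon base of Mt1 or Mt3 was shared. Gm45774 itself had 33, 34 and 15 reads in the sham libraries and 16, 5 and 24 in the BCAS libraries. Its groups overlapped, and its log2 fold change, -0.76 (standard error 0.56), did not pass (adjusted P = 0.343 by edgeR). Without strand, reads of Mt2 introns and reads of Gm45774 cannot be told apart in these counts.

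**Figure D2:**
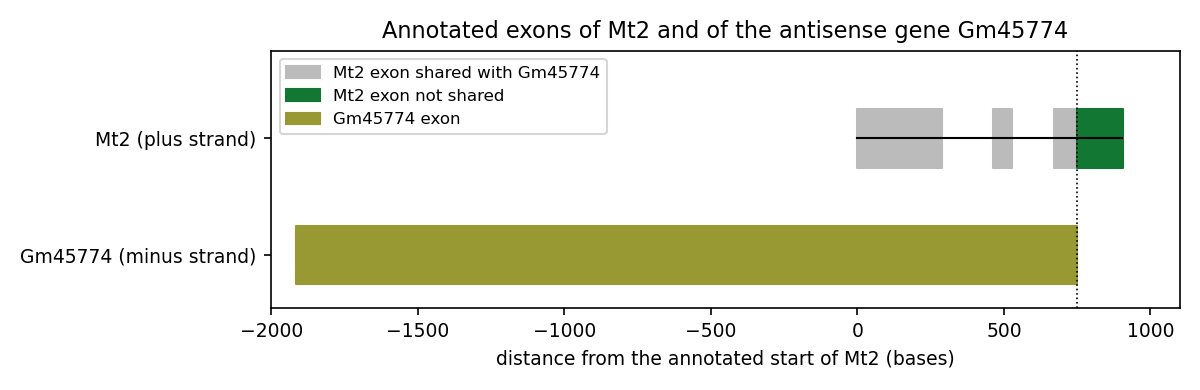
Annotated exons of Mt2 and Gm45774, drawn to scale as distance in bases from the start of Mt2, with the 432 shared Mt2 exon bases in grey, the 156 unshared bases in green and Gm45774 in olive. The only unshared part of Mt2 is its 3' end.

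Compared per length, Mt1 and Mt3 were both among the abundant transcripts of the hippocampus. On the scale of CPM per kilobase of annotated exon, Mt3 had 125 ± 9.01 and Mt1 had 99.8 ± 13.5 in sham mice (SD, n = 3), above 98.7% and 98.1% of the tested genes. In BCAS mice Mt1 had 180 ± 3.42 and Mt3 had 128 ± 7.33 (SD, n = 3), so that the order of the means was exchanged. The ranges of single sham mice for the level per kilobase, 88.1 to 115 for Mt1 and 115 to 130.4 for Mt3, touched each other on this scale. Before division by length, sham mouse 3 already had more reads of Mt1 (4899) than of Mt3 (4769). The annotated exons of Mt1 cover its whole span of 1246 bases, since 1 annotated transcript retains the introns, while its main spliced transcript has 549 bases (Mt3 has 536). With these spliced lengths, the levels per kilobase in sham mice were 227 ± 30.7 for Mt1 and 249 ± 17.9 for Mt3, and in BCAS mice 408 ± 7.76 for Mt1 and 254 ± 14.6 for Mt3 (SD, n = 3 each). Mt2, with 0.554 ± 0.265 in sham mice on the annotated exon scale, is not placed in this order because of the shared exon.

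The change of Mt1 against Mt3 can be read within each library, without any scaling between libraries. The ratio of Mt1 to Mt3 counts was 0.899, 0.870 and 1.03 in sham mice 1 to 3 and 1.602, 1.57 and 1.78 in BCAS mice 1 to 3. The groups did not overlap. On the log2 scale the ratio was higher by 0.82 in BCAS mice (exact permutation test, two-sided, P = 0.1, the smallest that 3 mice against 3 can give). The ratio stayed higher when any 1 mouse was left out, by 0.77 to 0.90.

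Metallothioneins were next set beside 13 markers of astrocytes. In BCAS mice 12 of these markers rose and 3 of them (Gfap, Aqp4 and S100b) were DEGs, against a background of 31.3% of tested genes passing in either direction. The summed level of the markers was 5028 to 5313 CPM in sham mice and 10266 to 10805 CPM in BCAS mice. Within these sums Gfap, the intermediate filament of reactive astrocytes, had 427, 353 and 346 CPM in sham mice and 3924, 3448 and 3661 CPM in BCAS mice. Its log2 fold change was 3.29 with a standard error of 0.15 (adjusted P = 7.25e-06 by edgeR). Slc1a3, a glutamate transporter, had a log2 fold change of 0.65 (edgeR adjusted P = 0.000861), and Aldoc, a glycolytic enzyme, was the marker that did not pass (0.26, edgeR adjusted P = 0.0730). The log2 fold change of Mt1 stood within this list, below those of 4 markers and above those of 9, next to Sox9 (0.87) and Aldh1l1 (0.82). The log2 fold change of Mt3 was below those of all 13.

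Relative to the mean log2 CPM of the 13 markers, Mt1 was at -0.60 ± 0.20 in sham and -0.61 ± 0.024 in BCAS mice (SD, n = 3 each), a difference of -0.0012 (exact permutation test, P = 1). This difference turned to 0.34, with no overlap (exact permutation test, P = 0.1, the smallest possible), when Gfap, S100b and Aqp4 were left out. These markers are the 3 with the largest rises, so that leaving them out had to move it up. It turned to 0.10 without sham mouse 3 and 0.010 without BCAS mouse 3, so its sign depends on single mice. Mt3 relative to the same 13 markers was at -0.50 ± 0.12 in sham and -1.32 ± 0.12 in BCAS mice (SD, n = 3 each). It was lower by 0.83 in BCAS mice, with no overlap (exact permutation test, P = 0.1, the smallest possible), and the difference was -0.48 without the same 3 markers. Mt3 itself hardly changed (0.032), while the mean log2 fold change of the 13 markers was 0.86. The lower relative level thus restates these changes and tests nothing further.

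**Figure D3:**
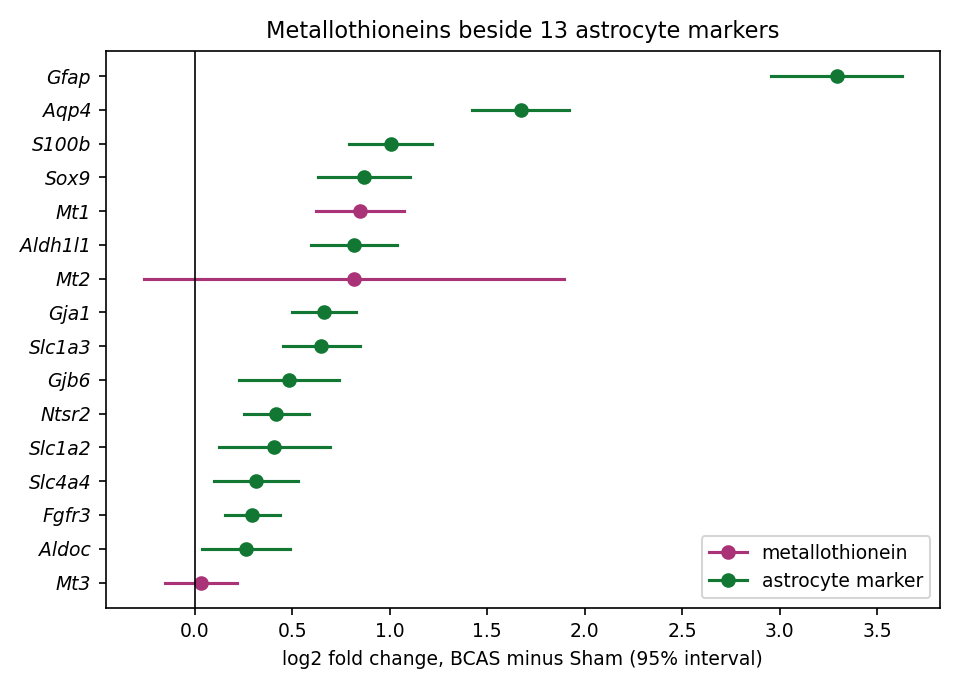
Log2 fold change (BCAS minus sham, points) with 95% interval (lines) of the 3 metallothioneins in purple and 13 astrocyte markers in green, sorted by value. Mt1 (0.85) stands among the markers, Mt3 (0.032) is the lowest point, and the interval of Mt2 is the widest.

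Markers of other cells were counted in the same way, and their counts stand beside 18.0% of all tested genes that rose and 13.2% that fell. All 10 microglia markers rose as DEGs, the most C1qa, a complement subunit (3.95), with a summed level of 376 to 394 CPM in sham and 2583 to 4263 CPM in BCAS mice, and 4 of 8 endothelial markers rose, the most the cadherin gene Cdh5 (0.98), from a sum of 325 to 361 CPM to a sum of 428 to 470.0 CPM. Of 12 markers of hippocampal neurons 9 fell, the most Fibcd1, a marker of CA1 neurons (-1.91), from a sum of 7950 to 8540 CPM to a sum of 4331 to 6200 CPM. None of 7 oligodendrocyte markers passed. In the list of 6 meningeal fibroblast markers 3 rose, the most the collagen gene Col1a1 (2.13), and in the list of 5 blood markers none passed. No marker of any list was at 0 in all libraries. Of 7 choroid plexus and ependyma markers 1 rose, a share near that of all tested genes, and their summed level was 87.6 to 4093 CPM in sham and 62.0 to 5941 CPM in BCAS mice. The gene that rose was Foxj1, a factor of ciliated ependymal cells, which had 13.8, 18.0 and 9.77 CPM in sham mice 1 to 3 and 32.6, 15.5 and 33.5 CPM in BCAS mice 1 to 3 (log2 fold change 0.97, edgeR adjusted P = 0.0387), with overlapping groups. Ttr, the thyroid hormone carrier made by the choroid plexus, had 882, 3773 and 38.0 CPM in sham mice 1 to 3 and 5461, 23.7 and 2930 CPM in BCAS mice 1 to 3, and did not pass (edgeR adjusted P = 0.717). In sham mice Mt1 was highest in mouse 3, which had the least Ttr, whereas in BCAS mice mouse 2 was lowest in both Mt1 and Ttr. The part of these cell markers in the rise of Mt1 was not tested. The same holds for Mt3, which zinc-rich neurons also express, and for its level relative to the astrocyte markers.

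Among 8 genes for known regulators of metallothioneins, 4 rose and none fell, where 18.0% of all tested genes rose and 13.2% fell. The median log2 fold change was 0.38, against 0.018 over all tested genes. Mtf1, the zinc sensor that drives Mt1 and Mt2, had 29.5, 27.1 and 24.4 CPM in sham mice and 30.7, 25.4 and 28.5 CPM in BCAS mice, with overlapping groups and a log2 fold change of 0.064 (95% interval -0.19 to 0.32, edgeR adjusted P = 0.702). Nfe2l2, which encodes the oxidative stress factor NRF2, rose from a mean of 19.3 ± 2.47 to 63.8 ± 14.2 CPM (SD, n = 3 each), on the log2 scale by 1.73 with a standard error of 0.16 (adjusted P = 0.000126 by edgeR). Stat3, the factor downstream of IL-6 cytokines, rose from a mean of 49.6 ± 3.20 to 102 ± 17.6 CPM, on the log2 scale by 1.04 with a standard error of 0.12 (adjusted P = 0.000350 by edgeR). Hif1a, the hypoxia factor subunit (0.76, edgeR adjusted P = 0.000873), and Sp1, a general promoter factor (0.62, edgeR adjusted P = 0.00587), also rose. The glucocorticoid receptor gene Nr3c1 (0.14, edgeR adjusted P = 0.148), Usf1 (-0.055, edgeR adjusted P = 0.633) and Usf2 (0.016, edgeR adjusted P = 0.900) did not pass.

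Zinc transport genes, which set the zinc that metallothioneins buffer, passed in both directions, and none of them was a DEG. Of the 9 tested ZnT exporters (Slc30a family) 1 rose and 1 fell, where 31.3% of all tested genes passed, and the median log2 fold change was -0.077. With DESeq2 or upper-quartile scaling 4 exporters passed, and with RLE scaling 3. Slc30a1, the exporter of the plasma membrane and like Mt1 a target of MTF1, had 51.9, 50.7 and 55.8 CPM in sham mice and 52.2, 51.8 and 53.0 CPM in BCAS mice. Its groups overlapped, with a log2 fold change of -0.013 (95% interval -0.17 to 0.15, edgeR adjusted P = 0.912). Slc30a7, a Golgi exporter, rose (0.48, edgeR adjusted P = 0.0142) and Slc30a9, a mitochondrial zinc transporter, fell (-0.26, edgeR adjusted P = 0.0321). Slc30a3, which loads synaptic vesicles of zinc-rich neurons, had 67.1, 84.8 and 72.2 CPM in sham mice and 61.7, 64.6 and 49.7 CPM in BCAS mice. All BCAS mice lay below the sham mice, but the log2 fold change of -0.35 did not pass (edgeR adjusted P = 0.0557).

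Of the 13 tested ZIP importers (Slc39a family) 5 rose and 2 fell (31.3% of all tested genes passed), with a median of 0.056. Slc39a8 rose most, from a mean of 5.47 ± 0.896 to 10.7 ± 2.16 CPM (SD, n = 3 each), on the log2 scale by 0.96 with a standard error of 0.19 (adjusted P = 0.00599 by edgeR), and Slc39a1 rose from a mean of 39.3 ± 0.975 to 65.8 ± 16.7 CPM (0.74, edgeR adjusted P = 0.00890). Slc39a12, an importer enriched in astrocytes, rose by 0.51 (edgeR adjusted P = 0.0137). Slc39a14 (0.38) and Slc39a13 (0.34) rose too. Slc39a3 (-0.28, edgeR adjusted P = 0.0478) and Slc39a6 (-0.25, edgeR adjusted P = 0.0220) fell. The largest value of the list, 1.61 for Slc39a4, had overlapping groups and did not pass (edgeR adjusted P = 0.0698). Like Ttr, Slc39a4 was lowest within each group in sham mouse 3 and BCAS mouse 2. The part of choroid plexus RNA in its values was not tested. The number of ZIP genes that passed was 2 without sham mouse 3 and 4 without sham mouse 1 or BCAS mouse 1, and no exporter passed without sham mouse 3 or BCAS mouse 3, and 1 without any 1 of sham mouse 1, sham mouse 2 and BCAS mouse 1.

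Copper, the other metal bound by these proteins, is handled by a list of which 13 genes were tested, and 4 rose and none fell (median 0.38), with 2 passing when sham mouse 3 was left out. This share was close to the 31.3% of all tested genes. Cp, the copper ferroxidase ceruloplasmin, rose from a mean of 17.9 ± 2.13 to 58.2 ± 19.1 CPM (SD, n = 3 each), on the log2 scale by 1.70 with a standard error of 0.21 (adjusted P = 0.000513 by edgeR). Sod3, the secreted superoxide dismutase (0.91, edgeR adjusted P = 0.00253), and Slc31a2 (0.59, edgeR adjusted P = 0.0136) also rose. The copper pump gene Atp7a rose as well (1.15, edgeR adjusted P = 0.0300), but its groups overlapped, with 5.19, 7.84 and 3.79 CPM in sham mice 1 to 3 and 14.2, 7.09 and 16.1 CPM in BCAS mice 1 to 3. Like Ttr, it was lowest within each group in sham mouse 3 and BCAS mouse 2. The copper importer gene Slc31a1, with 30.2, 55.0 and 21.7 CPM in sham and 78.0, 29.9 and 62.8 CPM in BCAS mice, was lowest in the same mice and did not pass (edgeR adjusted P = 0.216). The part of choroid plexus RNA in these values was not tested. Sod1, the cytosolic superoxide dismutase, did not pass (-0.052, edgeR adjusted P = 0.712).

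**Figure D4:**
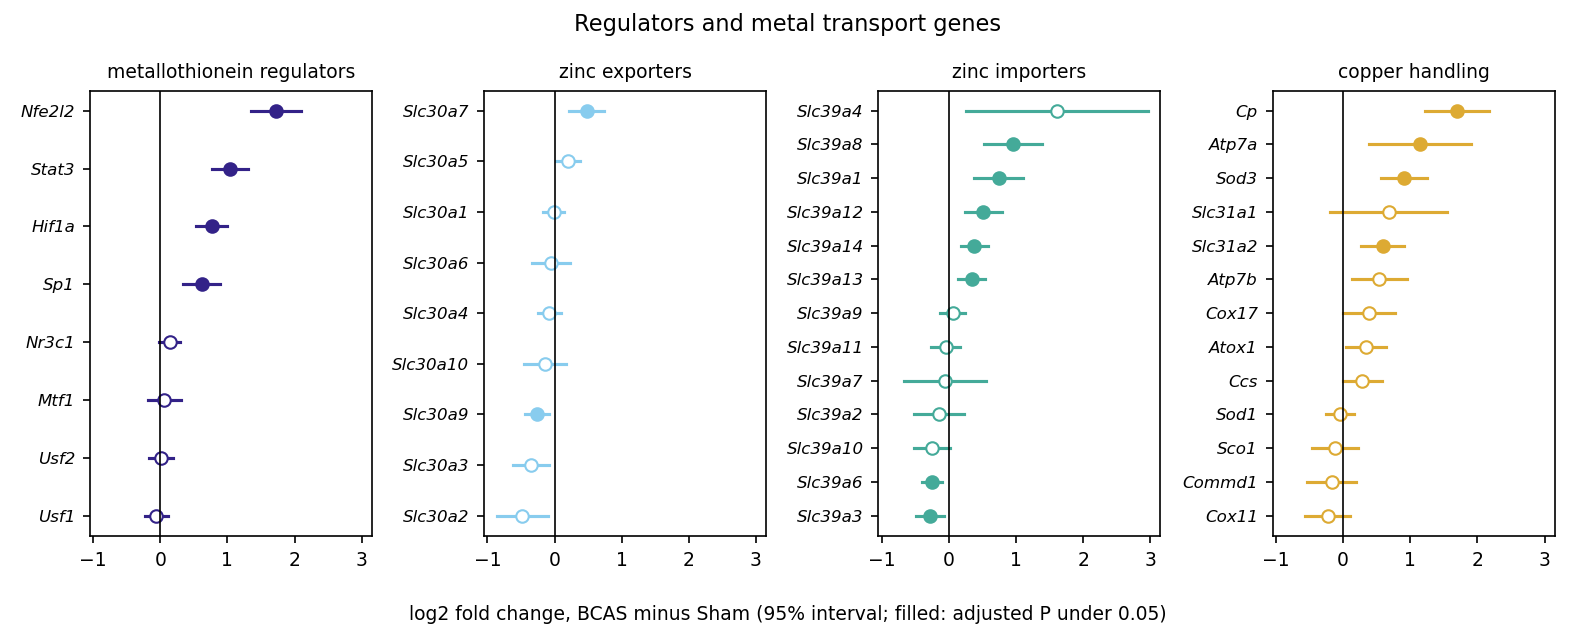
Log2 fold change (BCAS minus sham, points) with 95% interval (lines) for tested genes of 4 lists, sorted within each list, with filled points for genes at an adjusted P under 0.05. Nfe2l2 (1.73) and Cp (1.70) have the largest values that passed, and Mtf1 (0.064) and Slc30a1 (-0.013) lie at 0.

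Of 15 targets of NRF2 and genes of glutathione synthesis, the other thiol defence of the cell, 6 rose and 1 fell (median 0.13), where 18.0% of all tested genes rose and 13.2% fell. Hmox1, heme oxygenase, rose from a mean of 4.55 ± 0.598 to 17.9 ± 4.46 CPM (SD, n = 3 each), on the log2 scale by 1.97 with a standard error of 0.20 (adjusted P = 0.000159 by edgeR). Osgin1 (1.51), Slc7a11, the cystine importer (0.80), Prdx1, a peroxiredoxin (0.54), G6pdx (0.43) and Txnrd1 (0.29) rose as well, while Srxn1, sulfiredoxin, fell (-0.35, edgeR adjusted P = 0.0117). The glutathione synthesis genes Gclc (-0.088, edgeR adjusted P = 0.473), Gclm (0.020, edgeR adjusted P = 0.843) and Gss (-0.14, edgeR adjusted P = 0.493) did not pass.

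Of 11 glucocorticoid targets 3 rose and 3 fell (median -0.12), beside the same 18.0% and 13.2% of all tested genes. Plin4 (1.18), Sult1a1 (0.62) and Sgk1, a kinase (0.62), rose. Ddit4 (-0.57), Tsc22d3, which encodes GILZ (-0.38), and Klf9 (-0.36) fell. Fkbp5, the co-chaperone of the glucocorticoid receptor, did not pass (-0.12, edgeR adjusted P = 0.449). Of the lipoprotein receptors known to take up metallothioneins, Lrp1 rose from a mean of 378 ± 17.9 to 596 ± 77.7 CPM (SD, n = 3 each; 0.66, edgeR adjusted P = 0.00253), while Lrp2 had 1.22 ± 0.0720 and 1.34 ± 0.502 CPM and did not pass (0.14, edgeR adjusted P = 0.784).

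Promoter sequences are given because Mt1 and Mt3 differ in their change. They come from RefSeq (GRCm38.p6, the build of mm10), run from 250 bases before to 50 bases after the RefSeq start on the plus strand, and all 3 members were matched. Capitals mark the core of the metal response element, the site bound by MTF1, searched as TGCACNC or TGCGCNC on both strands.
Mt1, chr8:94178839-94179138: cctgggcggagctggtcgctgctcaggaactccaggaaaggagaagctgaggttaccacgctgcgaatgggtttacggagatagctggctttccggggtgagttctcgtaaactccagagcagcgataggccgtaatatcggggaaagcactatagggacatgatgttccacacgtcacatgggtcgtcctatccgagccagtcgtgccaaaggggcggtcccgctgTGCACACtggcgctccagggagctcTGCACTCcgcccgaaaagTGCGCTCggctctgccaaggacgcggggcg
Mt2, chr8:94172368-94172667: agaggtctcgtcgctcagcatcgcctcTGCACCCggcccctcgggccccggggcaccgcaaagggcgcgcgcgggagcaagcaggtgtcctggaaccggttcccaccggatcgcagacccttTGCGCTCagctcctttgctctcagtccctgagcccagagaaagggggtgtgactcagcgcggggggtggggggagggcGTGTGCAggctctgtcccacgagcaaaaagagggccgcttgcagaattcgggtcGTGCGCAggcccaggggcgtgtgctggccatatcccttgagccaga
Mt3, chr8:94152357-94152656: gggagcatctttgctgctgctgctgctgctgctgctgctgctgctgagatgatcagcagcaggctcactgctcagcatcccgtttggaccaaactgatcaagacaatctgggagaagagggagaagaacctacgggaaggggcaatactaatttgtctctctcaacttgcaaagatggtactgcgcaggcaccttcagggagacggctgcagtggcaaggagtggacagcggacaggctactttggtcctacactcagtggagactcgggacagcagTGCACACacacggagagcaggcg
The core occurred 3 times in the Mt1 window, 4 times in the Mt2 window and 1 time in the Mt3 window. The Mt1 matches lay between 23 bases before and 27 bases after the RefSeq start, and the Mt3 match lay 28 to 34 bases after it. The RefSeq start can differ from that of the annotation used for counting, in which Mt2 begins at 94172664, near the end of its window. Where transcription began was not measured. Of 32851 promoters of this length 25.7% held at least 1 match, 1.97% at least 3 and 0.518% at least 4. The STAT motif TTCNNNGAA was in none of the 3 windows (8.30% of promoters held it), the antioxidant response core TGACNNNGC was in that of Mt2 alone (12.4%), and the pair of glucocorticoid half-sites ACANNNTGT was in that of Mt1 alone (6.85%). These are matches of letters in the windows and not measured sites. The windows end at 94179138 (Mt1), 94172667 (Mt2) and 94152656 (Mt3), before the coding sequences, which start at 94179311, 94172848 and 94152800. Bases between these points and bases farther upstream were not searched, so a motif absent from a window may still lie near the gene.

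Genes next to the cluster were examined in the same way. Within 250 kb of it, 9 genes other than the members were tested, and none rose, where 18.0% of all tested genes rose and 13.2% fell, so that counts this low in 9 genes say nothing particular about the locus. C78859, a lincRNA, fell (-0.47, edgeR adjusted P = 0.0162), and the other 8 did not pass, among them Bbs2 on the Mt3 side (0.0092, edgeR adjusted P = 0.957) and Nup93 on the Mt1 side (-0.093, edgeR adjusted P = 0.591).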

How the data were processed

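RNA-seq libraries from 1 right hippocampus each of 3 sham and 3 BCAS mice were used, grouped and numbered by their labels. The authors trimmed the reads with Trim Galore, aligned them to mm10 with HISAT2 and deposited raw read counts per gene, without normalization. Per the file headers, featureCounts 2.0.3 and GENCODE M20 exons were used, whereas the methods name featureCounts 1.6.3 and RefSeq genes. Mates were counted as separate reads, and strand was ignored. Symbols were matched by Ensembl identifier for 54723 of 54752 genes. Exon overlap was computed from the coordinates in the files.

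Genes kept by filterByExpr were scaled by TMM factors, and the groups were tested by the quasi-likelihood method of edgeR (edgeR 4.0.16, limma 3.58.1, DESeq2 1.42.0, R 4.3.3), without a replicate block, with Benjamini-Hochberg adjustment over 18617 genes. "Rose" and "fell" mean an adjusted P under 0.05. Standard errors are the absolute log2 fold change divided by the root of F. Levels relative to astrocyte markers used log2 CPM with a prior count of 2. TMM factors were 0.964 to 1.05. The scripts were tested on simulated data. The members and gene lists were chosen with earlier results of these data known. Named genes are the members, regulators, neighbours within 250 kb, genes of similar pattern, and pathway list genes, with at least the largest passing rise and fall. Cell markers were named for the largest passing change of a list or for their values beside a member, after these were seen. DESeq2, limma-voom, other scalings and filters, glmTreat, thinned and halved counts, the block and leaving out each mouse were tried.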

Additional observations from a re-analysis of the deposited data

How the results depend on the processing

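The rise of Mt1 passed under every alternative for which single genes were recorded, with log2 fold changes of 0.83 to 0.93 with all mice and 0.76 to 0.96 with 1 mouse left out, and adjusted P values of 1.41e-12 to 0.00371. The run with glmTreat, which tests against a log2 fold change of 1, was recorded for the number of DEGs alone. Mt2 did not pass under any alternative in which it was tested. It was removed by the filter when counts were halved, and its log2 fold change was 0.46 to 1.03 with 1 mouse left out. Mt3 did not pass in any, at 0.011 to 0.11 with all mice and -0.0305 to 0.074 with 1 mouse left out. Changes of sign occurred in values near 0 or resting on Mt2. Mt1 relative to astrocyte markers was -0.094 to 0.10 with 1 mouse left out and 0.34 without Gfap, S100b and Aqp4, the 3 markers that rose most. For Mt2 relative to these markers the values were -0.45 to 0.17, 0.30 without the same 3 markers and 0.0080 in thinned counts. The log2 ratio of Mt1 to Mt2 differed by -0.11 (exact permutation test, P = 1), by -0.45 to 0.49 with 1 mouse left out and by 0.024 with a prior count of 2, while that of Mt2 to Mt3 differed by 0.94 (exact P = 0.1), and by 0.40 (without sham mouse 3) to 1.247 with 1 mouse left out (exact P = 0.1 to 0.3). The causes were not tested.

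Counts over the zinc and copper lists moved more. With 1 mouse left out, 0 to 3 zinc exporters, 2 to 9 importers and 2 to 6 copper genes passed, and 4 exporters passed with DESeq2 and 4 with upper-quartile scaling. Of all tested genes 5819 passed, and 3782 to 6646 with 1 mouse left out, the lowest without sham mouse 3. Scaled by library totals alone, 3859 genes rose and 1788 fell, against 3356 and 2463. The number that fell was 1260 (without sham mouse 3) to 3092 with 1 mouse left out. There were 1762 DEGs, and 818 with glmTreat. Mice of the same replicate number showed no clear pairing (residual correlations 0.036, -0.314 and -0.158), but 3 mice per group are too few to exclude it. With the replicate number as a block, 4 importers passed in place of 7.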

Other observations

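The genes whose log2 CPM followed a member most closely over the 6 libraries, among tested genes with a mean of at least 10 CPM, were listed as a description. For Mt1 they were Slc8b1, a mitochondrial sodium, lithium and calcium exchanger (Pearson's r = 0.994, log2 fold change 1.07), Telo2 (r = 0.993, 0.20) and Traf2, an adaptor of TNF receptors (r = 0.993, 0.74). For Mt3 they were D8Ertd738e (r = 0.996), Slc19a2, a thiamine transporter (r = 0.972), and Lyrm2 (r = 0.952). The 6 points share 2 groups of 3 mice each, which alone gives high values for any gene that differs between the groups, and the highest of many values were picked. For Mt2, with its few counts, the highest value was that of Fut11 (r = 0.997).

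The spread of Mt1 between mice differed between the groups. Its coefficient of variation was 13.5% in sham mice, above 90.0% of 10722 genes whose mean was 10 CPM or more, and 1.90% in BCAS mice, above 4.13% of them. For Mt3 it was 7.21% in sham and 5.73% in BCAS mice, against medians of 6.20% and 8.81% over these genes. With 3 mice per group these values are descriptions, and the difference in spread was not tested.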
